A study of Mus musculus with 12 samples.

Results

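A set of 6 genes of androgen and glucocorticoid biology were followed through RNA-seq of the mouse urogenital sinus, the embryonic tube that gives rise to the urethra, the prostate in males and the lower vagina in females. They were picked by gene symbol, 6 of 56495 genes in the expression table, and all 6 were present: the steroid enzymes Srd5a2, Srd5a1 and Sult1e1, the glucocorticoid receptor gene Nr3c1, and the steroid-responsive genes Fkbp5 and Zbtb16. The 12 libraries came from whole tissue of E18.5 embryos. There were 4 groups of 3, each sex being present as wild type and as Inv(Itga6-nsi)d11lac, the mutant genotype. The labels do not describe this allele further or give its zygosity. The bladder was removed, the proximal urethra was kept, and female samples also held the vagina, so sex and vaginal tissue cannot be told apart in these data. Whether replicates are separate embryos is not given, so p-values measure the spread between libraries, which may be technical.

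As background, testosterone from the fetal testis is turned into the stronger androgen dihydrotestosterone by steroid 5-alpha-reductases within the urogenital sinus itself. The hormone acts on a nuclear receptor, first in the mesenchyme around the epithelial tube, and the prostate buds of males form in response. Glucocorticoids act through a closely related receptor that recognises much the same DNA element, and several genes respond to both hormones.

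The labels were checked with genes outside the set. Mean scaled FPKM of Xist, transcribed from the inactive X chromosome, was 9.40 and 7.04 in wild type and mutant females and 0.0925 and 0.0102 in the males. The Y chromosome gene Ddx3y was at 0.0209 and 0.0274 in wild type and mutant females. It was at 15.2 ± 1.33 (SD, n = 3) in wild type males and 8.56 ± 0.436 in mutant males, so it differed with genotype too. The posterior homeobox gene Hoxd13 was at 18.0 ± 2.23 (SD, n = 3) in wild type females and 17.1 ± 1.88 in wild type males, against 4.50 ± 1.26 and 4.77 ± 1.26 in mutants. The deposited values are FPKM, read fragments normalised to transcript length and library size, and depth is not stated, so no counting interval can be given. The smallest steps between low values gave a relative depth of 0.578 to 0.712 for mutants and 0.807 to 1.0 for wild type, without overlap, so depth and genotype cannot be told apart. The small nuclear RNA gene Rn7sk is at 0 in 9 libraries but made up 12.2% of the FPKM sum of wild type male 1, 13.8% of mutant male 1 and 14.9% of mutant male 3. Values below were divided by a library factor that equalises the typical gene, and are called scaled FPKM.

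The receptors for androgens and glucocorticoids recognise much the same DNA element, and whether either acts on the members was not tested. Promoter windows are printed for 4 of the 6 genes (not for Nr3c1 or Zbtb16). Each is the 250 bases before the RefSeq transcription start in build GRCm38.p6, on the minus strand and written 5′ to 3′ in the direction of the gene. Capitals mark GC boxes (GGGCGG) and CCAAT boxes on either strand, and the last GC box and CCAAT box of Fkbp5 touch without sharing a base.
Srd5a2, chr17:74047861-74048110: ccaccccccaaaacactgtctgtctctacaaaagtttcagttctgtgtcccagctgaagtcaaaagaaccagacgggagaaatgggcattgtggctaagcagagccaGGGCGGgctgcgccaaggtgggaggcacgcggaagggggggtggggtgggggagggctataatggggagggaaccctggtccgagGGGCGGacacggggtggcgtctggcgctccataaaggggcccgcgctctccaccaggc
Srd5a1, chr13:69611464-69611713: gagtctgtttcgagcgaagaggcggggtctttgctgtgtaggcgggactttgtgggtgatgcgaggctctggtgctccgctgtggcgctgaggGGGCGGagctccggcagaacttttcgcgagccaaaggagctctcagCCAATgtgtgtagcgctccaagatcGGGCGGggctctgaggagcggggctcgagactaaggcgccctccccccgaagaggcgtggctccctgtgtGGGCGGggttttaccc
Sult1e1, chr5:87591612-87591861: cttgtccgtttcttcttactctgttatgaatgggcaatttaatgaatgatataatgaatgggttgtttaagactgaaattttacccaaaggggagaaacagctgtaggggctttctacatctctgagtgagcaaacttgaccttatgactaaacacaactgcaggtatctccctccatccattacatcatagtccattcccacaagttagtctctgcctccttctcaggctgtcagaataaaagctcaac
Fkbp5, chr17:28486150-28486399: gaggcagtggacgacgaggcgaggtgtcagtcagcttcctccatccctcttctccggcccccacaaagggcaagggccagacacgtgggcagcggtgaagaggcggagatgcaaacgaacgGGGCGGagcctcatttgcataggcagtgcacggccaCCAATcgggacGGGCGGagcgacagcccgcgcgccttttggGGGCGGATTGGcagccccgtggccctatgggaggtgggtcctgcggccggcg
The Srd5a2, Srd5a1 and Fkbp5 windows were rich in G and C, at 63.2%, 64.8% and 68.0%, with 2, 3 and 3 GC boxes. A GC box was found in 32.7% of 32851 RefSeq promoter windows of the same length. The Srd5a1 window held 1 CCAAT box and the Fkbp5 window held 2, and 33.8% of all windows had at least 1. Sult1e1 had the AT-rich window, with 40.8% G and C against a median of 52.4% over all windows, and held none of the motifs searched. The palindromic receptor element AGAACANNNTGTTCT, the shorter AGAACA it contains and the TATA box TATAAA, searched on both strands, were absent from all 4 windows. The palindrome was present in 0.00913% of all windows, AGAACA in 16.1% and TATAAA in 12.4%.

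Between the sexes, 3 of the 6 genes were higher in wild type males than in wild type females and 4 of 6 in mutant males than in mutant females. Fkbp5, Sult1e1 and Zbtb16 passed in both genotypes, and Srd5a2 passed in mutants. Srd5a1 and Nr3c1 did not pass in either. Over all 13904 genes tested, 3.18% were called in wild type (1.95% higher and 1.23% lower in males) and 7.49% in mutants (3.98% higher and 3.52% lower in males). The calls come from limma with Benjamini-Hochberg adjustment over all genes at 0.05, on log2(scaled FPKM + 0.5). Sult1e1 and Zbtb16 reached the filter of 1 FPKM in 3 libraries only through the male libraries, so their presence among the tested genes already depended on being higher there, and the counts are a description.

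**Figure D1:**
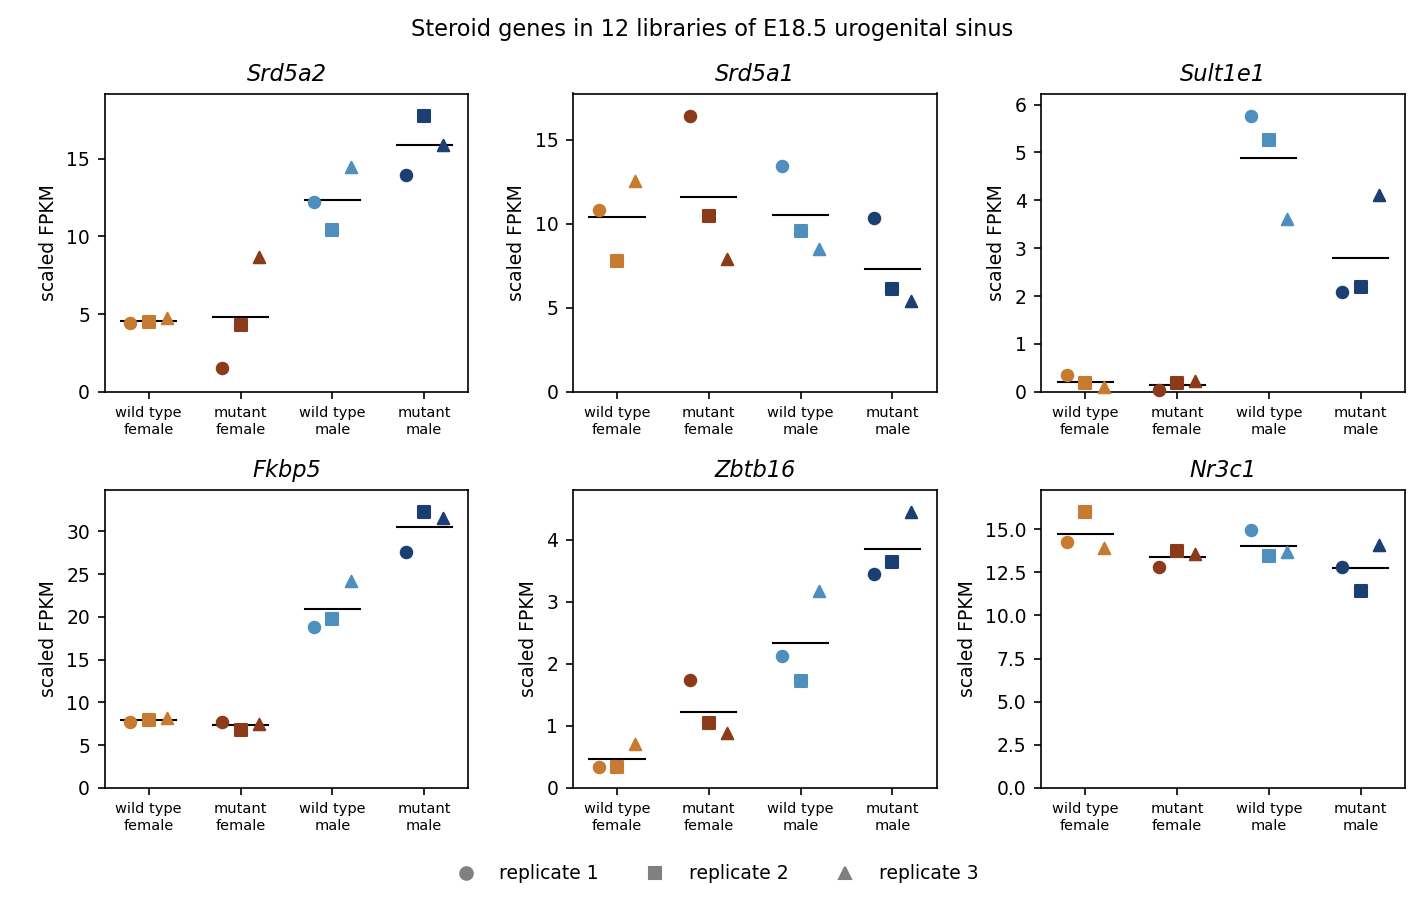
Scaled FPKM of the 6 genes in each of the 12 libraries by group, where each point is a library (circle, square and triangle for replicates 1, 2 and 3) and each bar is the group mean. Fkbp5, Sult1e1 and Srd5a2 separate all male from all female libraries, and Srd5a1 and Nr3c1 spread across all groups. Mutant female 1 lies at the bottom for Srd5a2 and at the top for Srd5a1.

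Srd5a2 (ENSMUSG00000038541, build mm39 chr17:74323950-74354911) encodes the 5-alpha-reductase of the developing male urogenital tract. Its scaled FPKM was 4.40, 4.52 and 4.73 in wild type females and 12.2, 10.4 and 14.5 in wild type males. It was 1.51, 4.31 and 8.69 in mutant females and 13.9, 17.8 and 15.9 in mutant males. All 6 male libraries lay above all 6 female libraries, and the mutant females spread more widely than any other group. The group means in rising order were 4.55 ± 0.168 (SD, n = 3) in wild type females, 4.84 ± 3.62 in mutant females, 12.4 ± 2.01 in wild type males and 15.9 ± 1.93 in mutant males. Neighbours of the same sex overlapped in this order.

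The log2 difference of Srd5a2 between males and females was 1.34 in wild type (SE 0.40, 95% interval 0.47 to 2.21, limma adjusted p = 0.102) and 1.87 in mutants (SE 0.40, 1.00 to 2.74, adjusted p = 0.0195). The wild type groups did not overlap although the test was not passed, and 31.8% of all tested genes had groups without overlap in that comparison. The limma fit shares 1 spread over the 4 groups, and the wide mutant females enter it. With the wild type groups fitted alone the adjusted p was 0.00128, and without mutant female 1 or mutant female 3 it was 0.00367 and 0.0156. In mutants the call was lost without mutant male 2 (adjusted p = 0.0623) or mutant male 3 (0.0669), with no filter on low values (0.051), with the mutant groups fitted alone (0.132) and without the 3 libraries with Rn7sk (0.334). Mutant against wild type, Srd5a2 differed by 0.35 in males (SE 0.40, -0.52 to 1.22, adjusted p = 0.57) and -0.18 in females (SE 0.40, -1.05 to 0.69, adjusted p = 0.768). The female value was 0.40 without mutant female 1 and -0.70 without mutant female 3.

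Srd5a1 (ENSMUSG00000021594, chr13:69721568-69759561) encodes the other main 5-alpha-reductase, which is found widely outside the male reproductive tract. It measured 10.8, 7.76 and 12.6 scaled FPKM in wild type females, 16.4, 10.5 and 7.92 in mutant females, 13.4, 9.58 and 8.47 in wild type males and 10.3, 6.10 and 5.41 in mutant males. Every pair of groups overlapped, and replicate 1 was the highest library in 3 of the 4 groups. The means in rising order were 7.28 ± 2.66 (mutant males), 10.4 ± 2.43 (wild type females), 10.5 ± 2.61 (wild type males) and 11.6 ± 4.37 (mutant females), and no neighbours in that order differed beyond their spread. Male against female, the log2 difference was 0.02 in wild type (SE 0.29, -0.63 to 0.66, adjusted p = 0.986) and -0.63 in mutants (SE 0.29, -1.27 to 0.02, adjusted p = 0.213). Mutant against wild type, it was -0.53 in males (adjusted p = 0.228) and 0.12 in females (adjusted p = 0.793). Srd5a1 lies wholly within the span of Nsun2, an RNA methyltransferase gene on the opposite strand. The libraries are strand-specific but the counting setting is not given in the sources used here, so reads of the pair may not be fully separated.

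The balance of the reductases was compared between the sexes. The ratio of Srd5a2 to Srd5a1 in scaled FPKM, a length-normalised scale, was 0.406, 0.583 and 0.377 in wild type females and 0.910, 1.09 and 1.71 in wild type males. In mutants it was 0.0920, 0.412 and 1.10 in females and 1.35, 2.91 and 2.94 in males. All 3 wild type females and 2 of 3 mutant females had less Srd5a2 than Srd5a1, and all 3 mutant males and 2 of 3 wild type males had more. The mean log2 ratio was higher in males by 1.42 in wild type and by 2.71 in mutants, each with an exact two-sided permutation p of 0.1, the smallest that 3 against 3 can give. The difference between mutant and wild type was 0.93 in males (exact permutation p = 0.2) and -0.37 in females (exact permutation p = 0.9). These are 4 comparisons of 1 family, and with a smallest p of 0.1 none could pass 0.05.

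The summed level of both reductases varied less than their ratio. It was 15.2, 12.3 and 17.3 in wild type females, 17.9, 14.8 and 16.6 in mutant females, 25.7, 20.0 and 22.9 in wild type males and 24.2, 23.9 and 21.3 in mutant males. All male libraries exceeded all female ones, and the mean log2 sum was higher in males by 0.62 in wild type and 0.50 in mutants (exact permutation p = 0.1 each). Across the 12 libraries Srd5a1 and Srd5a2 ran in opposite directions, with a Pearson r of -0.65, and within the 6 female and 6 male libraries r was -0.82 and -0.73. Among wild type females alone, replicate 3 was highest for both genes, at 12.6 for Srd5a1 and 4.73 for Srd5a2. The wider values of mutant females ran opposite (16.4, 10.5 and 7.92 against 1.51, 4.31 and 8.69). These correlations are descriptions over libraries that share group, scaling and depth.

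**Figure D2:**
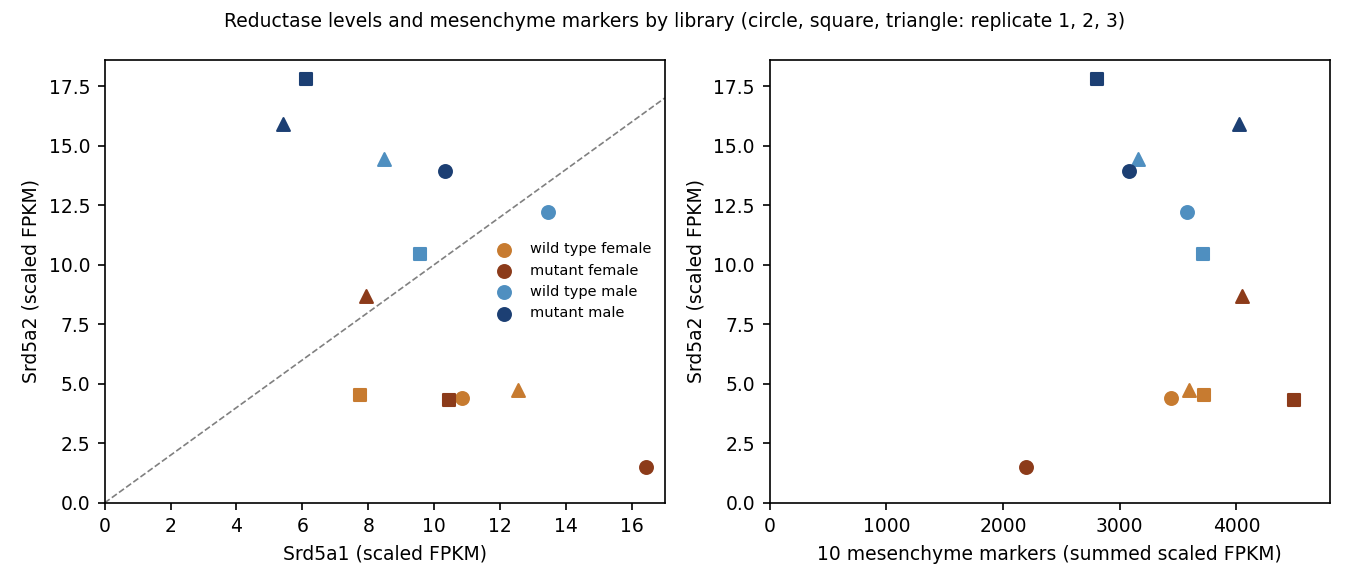
Scaled FPKM of Srd5a2 against Srd5a1 (left, the dashed line marks equal levels) and against the summed scaled FPKM of 10 mesenchyme markers (right), with 1 point per library coloured by group. Mutant female 1 stands alone with 16.4 Srd5a1, 1.51 Srd5a2 and the smallest mesenchyme sum, and males lie at 10.4 or more for Srd5a2.

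Mutant female 1 also differed in tissue markers. Its sum over 10 epithelial markers was 923 scaled FPKM, against 433 and 556 in the other mutant females and 324 to 393 in wild type females, and its sum over 10 mesenchymal markers was 2200 against 4490 and 4050 and 3440 to 3720. The 6 markers of Müllerian duct and vagina summed to 50.5 there, against 19.6 and 27.8 in the other mutant females, 15.6 to 19.0 in wild type females and 3.28 to 6.43 in males. In bulk tissue, fewer cells of a type and less RNA per cell cannot be told apart, and the part of these markers in the Srd5a2 values was not tested.

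Sult1e1 (ENSMUSG00000029272, chr5:87723828-87739453) encodes oestrogen sulfotransferase, which inactivates oestrogens by adding a sulfate group. Its scaled FPKM was 0.356, 0.177 and 0.107 in wild type females and 0.0369, 0.183 and 0.229 in mutant females. It was 5.77, 5.26 and 3.62 in wild type males and 2.09, 2.19 and 4.11 in mutant males. The lowest male library was far above the highest female library, and the ratio of group means was 22.9 in wild type and 18.7 in mutants. On the log2(scaled FPKM + 0.5) scale, which understates the change of a gene so low in females, males exceeded females by 2.91 in wild type (SE 0.25, 2.36 to 3.46, adjusted p = 9.48e-05) and 2.302 in mutants (SE 0.25, 1.75 to 2.85, adjusted p = 0.000479). Without the 3 libraries with Rn7sk the mutant difference was 2.07 with an adjusted p of 0.0504.

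Among males, mutant Sult1e1 was 2.79 ± 1.14 against 4.88 ± 1.12 in wild type, and mutant male 3 lay within the wild type range. The log2 difference was -0.74 (SE 0.25, -1.29 to -0.19) and missed the threshold with an adjusted p of 0.0593 (limma). Without mutant male 3 it was -1.01 with an adjusted p of 0.0159, and without wild type male 3 or mutant female 1 the adjusted p was 0.0411 and 0.0458. It also passed with a pseudocount of 1 (adjusted p = 0.0409), on FPKM as deposited (0.0287) and scaled to library sums (0.0378). With correction for transcript length and GC content it was -0.10 (adjusted p = 0.847), and over all alternatives the adjusted p ran from 0.0159 to 0.847. In females, where all libraries were under 0.4 scaled FPKM, the difference was -0.13 (adjusted p = 0.724), and 0.63 with that correction (adjusted p = 0.149).

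Fkbp5 (ENSMUSG00000024222, chr17:28618068-28736498) encodes an immunophilin co-chaperone of Hsp90 that binds steroid receptor complexes and is itself a common target of androgens and glucocorticoids. It measured 7.67, 7.95 and 8.18 scaled FPKM in wild type females, 7.73, 6.71 and 7.46 in mutant females, 18.8, 19.7 and 24.2 in wild type males and 27.6, 32.3 and 31.6 in mutant males. Females of both genotypes overlapped near the bottom, wild type males were separate from them, and mutant males were separate again above. The group means were 7.30 ± 0.527, 7.93 ± 0.258, 20.9 ± 2.90 and 30.5 ± 2.55 in mutant females, wild type females, wild type males and mutant males.

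Males exceeded females in Fkbp5 by 1.34 on the log2 scale in wild type (SE 0.10, 1.11 to 1.56, limma adjusted p = 3.93e-05) and by 1.99 in mutants (SE 0.10, 1.77 to 2.21, adjusted p = 1.42e-06). By p-value Fkbp5 ranked 13 of the 13904 genes in wild type and 5 in mutants. Both calls held in each of 22 other settings of the processing. Fkbp5 was also the 1 member of 6 called higher in mutant males against wild type males, by 0.54 (SE 0.10, 0.32 to 0.76, adjusted p = 0.00589), a ratio of means of 1.46. That comparison called 20.3% of all genes tested, 8.64% higher and 11.6% lower, so a count of 1 in 6 is near the background. The call held without any single library and was lost on FPKM as deposited, where the difference was 0.39 (adjusted p = 0.122) and the median of all genes moved by -0.14. It was also lost without the 3 libraries with Rn7sk, which leaves 1 mutant male and gave 0.55 (adjusted p = 0.151).

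In females Fkbp5 differed by -0.11 between mutant and wild type (SE 0.10, -0.34 to 0.11, adjusted p = 0.422), and by -0.34 scaled to library sums, which passed (adjusted p = 0.0381). The difference between the mutant effects in males and females was 0.65 for Fkbp5 (SE 0.14, 0.34 to 0.97), with an unadjusted p of 0.000778 in limma that ranked 19 of all genes and an adjusted p of 0.538. None of the 13904 genes passed that test (0%), 1225 of them had an unadjusted p under 0.05, and a different mutant effect in the sexes was therefore not shown for any member.

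Zbtb16 (ENSMUSG00000066687, chr9:48565597-48747522) encodes PLZF, a zinc finger transcriptional repressor induced by glucocorticoids and androgens in several cell types. The scaled FPKM of Zbtb16 was 0.339, 0.338 and 0.703 in wild type females, 1.74, 1.04 and 0.884 in mutant females, 2.12, 1.72 and 3.16 in wild type males and 3.44, 3.64 and 4.45 in mutant males. The libraries were ordered by sex and then by genotype, and only mutant females and wild type males overlapped, at 1.74 against 1.72. The means in rising order were 0.460 ± 0.211 (wild type females), 1.22 ± 0.457 (mutant females), 2.34 ± 0.743 (wild type males) and 3.84 ± 0.536 (mutant males).

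Males exceeded females in Zbtb16 by 1.55 in wild type (SE 0.23, 1.04 to 2.07, limma adjusted p = 0.00506) and by 1.36 in mutants (SE 0.23, 0.84 to 1.87, adjusted p = 0.00723). Without the 3 libraries with Rn7sk the adjusted p was 0.0704 and 0.283. Mutant against wild type, Zbtb16 rose in females by 0.83 (SE 0.23, 0.32 to 1.35, adjusted p = 0.0222), the 1 member of 6 called there where 28% of all genes were called, 12.1% higher and 15.9% lower. The female groups did not overlap, with the mutants higher, as for 20.4% of all genes. It differed by 0.64 in males (SE 0.23, 0.12 to 1.15, adjusted p = 0.0777), where the groups did not overlap, as for 43.5% of all genes (21.1% with mutants higher). The male difference passed without mutant female 1 (adjusted p = 0.041) or wild type male 3 (0.0381), and with the male groups fitted alone (0.049). It was 0.48 without wild type male 2 (adjusted p = 0.239) and 0.44 with correction for transcript length and GC content (0.328), and over all alternatives the adjusted p ran from 0.0381 to 0.568. Averaged over both sexes, Zbtb16 rose by 0.74 (SE 0.17, adjusted p = 0.00484) and Fkbp5 by 0.21 (SE 0.07, adjusted p = 0.0343), 2 members of 6 where 40.6% of all genes were called.

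The female call of Zbtb16 was lost with no filter on low values (adjusted p = 0.065), with the female groups fitted alone (0.0628), without the 3 libraries with Rn7sk (0.0654), with correction for transcript length and GC content (0.63, adjusted p = 0.159), without wild type female 1 (adjusted p = 0.0803), wild type female 2 (0.0747) or mutant female 1 (0.0639), and the sex-averaged call was lost with that correction (0.53, adjusted p = 0.059). The averaged Fkbp5 call was lost in 14 of 21 other settings. Tissue markers moved with genotype beside these values. Of 10 epithelial markers, 3 were called higher in mutant males and 4 in mutant females, against 8.64% and 12.1% of all genes. The keratin gene Krt5 rose by 1.45 and 1.64. The sums ran from 317 to 483 in mutant males against 290 to 340 in wild type males. Of 10 mesenchymal markers, 1 was called lower in mutant males and 3 in mutant females, against 11.6% and 15.9% of all genes. This list holds Hoxd13, used above to check the genotype labels, so the counts do not stand for mesenchyme alone. Male sums were 2810 to 4020 (mutant) and 3160 to 3710 (wild type). Of 10 skeletal muscle markers, 7 were called lower in mutant males and none was called in mutant females. The male median was -0.95, with sums of 578 to 944 against 976 to 1340 in wild type males. Of 7 blood markers, 1 was called higher in mutant males. The median over the list was 1.99, with sums of 4200 to 11800 against 700 to 7210 in wild type males. The part of these markers in the Zbtb16, Fkbp5 and Sult1e1 values was not tested.

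Nr3c1 (ENSMUSG00000024431, chr18:39543598-39652474) encodes the glucocorticoid receptor itself and was the steadiest of the set. It measured 14.3, 16.0 and 13.9 scaled FPKM in wild type females, 12.8, 13.7 and 13.6 in mutant females, 15.0, 13.4 and 13.7 in wild type males and 12.8, 11.4 and 14.1 in mutant males. The group means of 14.7 ± 1.13, 13.4 ± 0.483, 14.0 ± 0.820 and 12.8 ± 1.33 lay close together, and of the 4 comparisons made only mutant against wild type females had groups without overlap, as had 42.6% of all genes. The sex difference was -0.07 in wild type (SE 0.09, -0.26 to 0.12, limma adjusted p = 0.717) and -0.07 in mutants (adjusted p = 0.671), and the genotype difference was -0.13 in males (SE 0.09, -0.33 to 0.06, adjusted p = 0.309) and -0.13 in females (adjusted p = 0.276). With each library scaled to its FPKM sum, which moved the median of all genes by -0.21 in females, the female difference was -0.37 and passed (adjusted p = 0.0106).

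**Figure D3:**
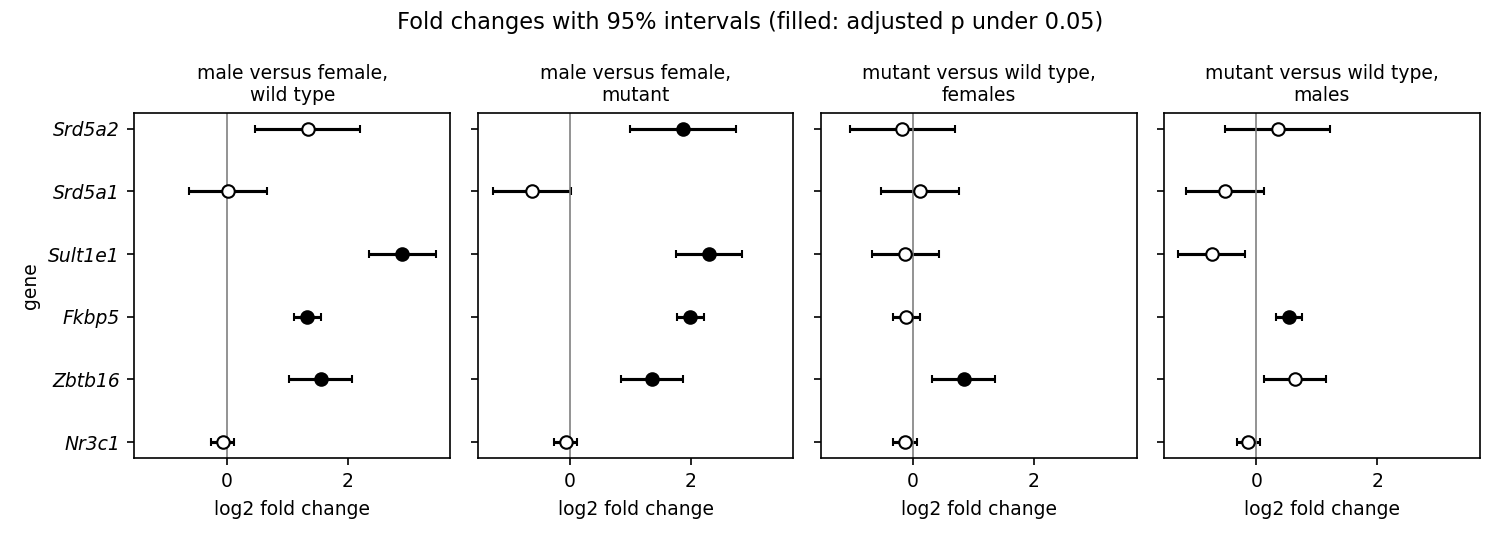
Log2 fold changes of the 6 genes with 95% intervals in the sex and genotype comparisons, on the log2(scaled FPKM + 0.5) scale, with filled points where the limma adjusted p is under 0.05. The filled points are 3 and 4 genes in the sex comparisons, Zbtb16 in mutant females (0.83) and Fkbp5 in mutant males (0.54).

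Genes that act beside the members were taken from 5 lists on steroid biology. The list counts are of called genes. They stand beside 1.95% of all genes called higher and 1.23% lower in wild type males against females, and 3.98% and 3.52% in mutants. Of 19 tested enzymes and cofactors of steroid conversion, 1 rose in wild type males against females and 2 rose and 1 fell in mutants. Papss2, which makes the sulfate donor that sulfotransferases such as Sult1e1 use, was higher in males by 1.35 in wild type (adjusted p = 0.000639) and 1.72 in mutants (adjusted p = 8.39e-05). It measured 5.04, 5.71 and 5.08 scaled FPKM in wild type females and 13.3, 15.1 and 14.3 in wild type males. In mutants it was 3.05, 4.65 and 4.87 in females and 12.9, 16.1 and 15.3 in males, so all male libraries lay above all female ones. Cyp7b1, a hydroxylase of oxysterols and steroids, was higher in mutant males than in mutant females, by 0.93 (adjusted p = 0.0219). The sulfotransferase gene Sult2b1 was lower, by -0.97 (adjusted p = 0.0278), a call lost in 6 of 21 alternatives. It measured 3.07, 1.41 and 1.83 scaled FPKM in mutant females and 0.852, 1.06 and 0.494 in mutant males. Sult2b1 reached the filter only with the mutant females, so its presence among the tested genes already depended on being higher there.

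Of 24 tested androgen response genes, 2 were higher in wild type males, 3 in mutant males and none lower in either. Aldh1a3, a retinaldehyde dehydrogenase, was higher in males by 2.36 in wild type (adjusted p = 0.00346) and 2.58 in mutants (adjusted p = 0.0014), and its libraries measured 6.76 to 8.90 and 40.3 to 44.9 in wild type females and males and 6.23 to 20.9 and 53.9 to 80.9 in mutants. Lifr, a cytokine receptor gene, was higher in mutant males by 0.43 (adjusted p = 0.0316).

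Of 20 tested glucocorticoid response genes, 1 was higher in wild type males and 4 in mutant males, with none lower. Errfi1, a feedback inhibitor of EGF receptor signalling, was higher by 0.70 in wild type (adjusted p = 0.023) and 0.69 in mutants (adjusted p = 0.0174), and the Krüppel-like factor genes Klf15 and Klf9 were higher in mutant males by 1.46 (adjusted p = 0.0127) and 0.70 (adjusted p = 0.0433). The list median was 0.23 in wild type and 0.20 in mutants against 0.01 and 0.02 over all genes. Of 25 chaperones and coregulators of steroid receptors, none was called in wild type and 1 in mutants, the SUMO ligase gene Pias1 at 0.45 (adjusted p = 0.0358). Of the mineralocorticoid receptor gene Nr3c2 and 5 of its targets, Nr3c2 alone was called, lower in mutant males by -0.69 (adjusted p = 0.0327). It measured 1.287, 1.495 and 1.287 scaled FPKM in mutant females and 0.698, 0.856 and 0.443 in mutant males. Nr3c2 reached the filter only through the mutant females, so its presence among the tested genes already depended on being higher there. Several of these calls depended on single libraries or settings. In mutants, Klf9 lost its call in 13 of 22 alternatives, 9 of them omissions of 1 library, Pias1 in 12 of 22 (7 such omissions), Lifr in 11 of 22 (5) and Nr3c2 in 9 of 18 (4). Papss2 kept its call in all 22 in both genotypes. Without the 3 libraries with Rn7sk, 2 of the 4 wild type and 1 of the 11 mutant sex calls that the naming rule picks from these lists were kept.

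**Figure D4:**
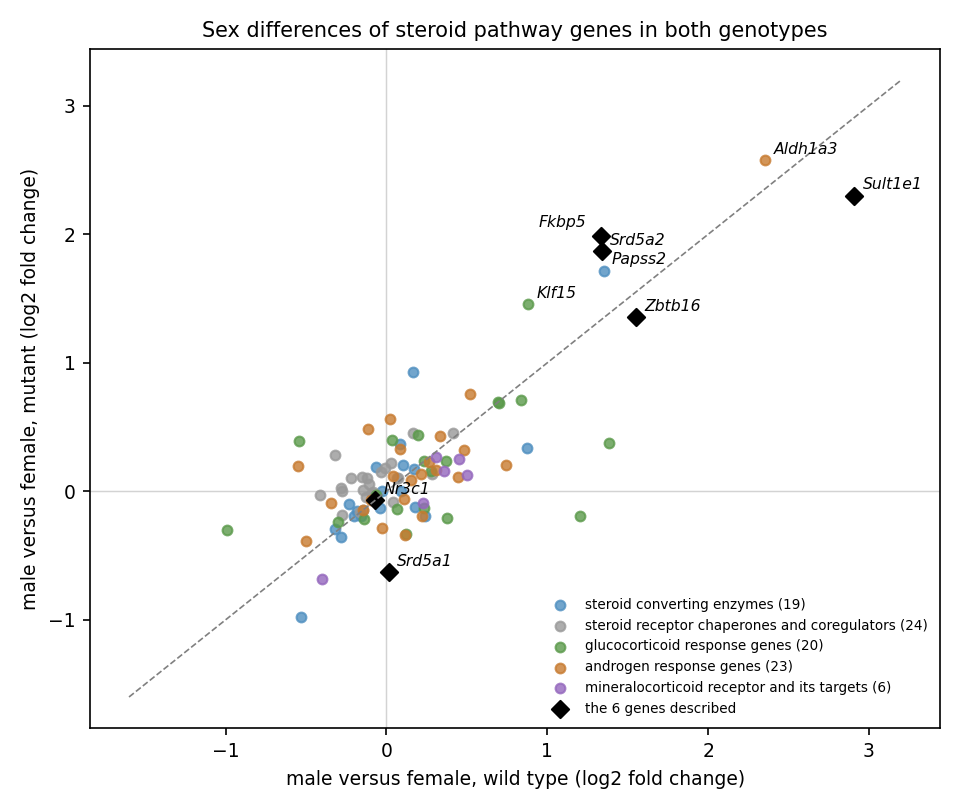
Sex differences (male minus female, log2) in mutants against wild type for genes of the 5 lists (circles, coloured by list, number plotted in the key) and the 6 genes described (black diamonds), with a dashed line of equality. Sult1e1, Aldh1a3, Zbtb16, Papss2, Fkbp5 and Srd5a2 lie at the upper right, above 1.3 on both axes. Nr3c1 lies with the bulk of the lists near 0, and Srd5a1 lies at 0.02 in wild type and -0.63 in mutants.

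Between genotypes, 20.3% of all genes were called in males and 28% in females, and the list counts, also of called genes, are described against those shares. Among enzymes, 2 rose and 2 fell in mutant males and 3 rose and 3 fell in mutant females. Akr1c14, which reduces dihydrotestosterone to a weaker androgen, fell in mutants by 0.89 on the log2 scale in males (adjusted p = 0.0338) and by 0.80 in females (adjusted p = 0.0398). The gene was low throughout, at 0.9735 to 1.62 scaled FPKM in wild type libraries and 0.2216 to 0.8626 in mutants. Akr1c14 reached the filter only through wild type libraries, so its presence among the tested genes already depended on being higher there. The Akr1c14 calls were lost in 8 and 12 of 21 alternatives, 4 and 7 of them omissions of 1 library, with differences as small as -0.44 and -0.22. Of chaperones and coregulators, 6 rose and 4 fell in males and 2 rose and 7 fell in females, with the Hsp90 co-chaperone gene Ptges3 at -0.62 and -0.81. Of androgen response genes, 1 rose and 2 fell in males and 1 rose and 3 fell in females. Of glucocorticoid response genes, 3 rose in males and 5 rose and 1 fell in females, with the clock gene Per1 at 0.85 (adjusted p = 0.0348) and 0.82 (adjusted p = 0.0326), each call lost in 9 of 22 alternatives. Of Nr3c2 and its 5 targets, 0 were called in males and 1 rose in females, Nr3c2 itself. Its female mean was 0.8075 scaled FPKM in wild type and 1.357 in mutants, through which alone it reached the filter. That call was lost in 13 of 18 alternatives. With correction for transcript length and GC content, 1 of the 12 calls the naming rule picks in males and 0 of the 13 in females were kept, and the calls over all genes went from 2820 to 581 and from 3895 to 724.

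The genes closest to each member over the 12 libraries, by Pearson r of log2(scaled FPKM + 0.5), are given as descriptions. Fkbp5 ran closest to Wnt9b (0.991), Habp2 (0.983) and Aldh1a1 (0.982), but within the 6 female libraries r was 0.54, -0.44 and -0.03, against 0.87, 0.79 and 0.88 within the 6 male ones. Sult1e1 ran closest to Eif2s3y (0.986), Uty (0.983) and Ddx3y (0.979), genes of the Y chromosome, which females lack. Within the 6 male libraries r with these genes was 0.90, 0.82 and 0.80. Srd5a2 ran closest to Dclk2 (0.982), Epha3 (0.978) and Ptprk (0.971), and Zbtb16 to Cyp2f2 (0.939), Etv4 (0.936) and Tst (0.931). Srd5a1 ran closest to S100a1 (0.921), Slc35g1 (0.892) and Cmss1 (0.876), and Nr3c1 to Ebf3 (0.885), Ptger3 (0.878) and Abca9 (0.870). Among the members, Fkbp5 and Zbtb16 had r of 0.89 over all libraries, 0.93 within males and -0.32 within females. Fkbp5 and Sult1e1 had 0.88 over all libraries but -0.76 within males and -0.23 within females.

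Other tissues that make or answer steroids were looked for with marker lists. Of 10 markers of adrenal and gonad, 1 was tested, Inha, and the list summed to 3.07 to 5.02 in all 12 libraries. Inha made up most of that sum, at 2.495 to 4.04 scaled FPKM. The mean of the steroid supply gene Star was no more than 0.118 in any group. The 6 kidney markers summed to at most 0.217. Of 10 skeletal muscle markers, 4 were higher in wild type males than females, with sums of 976 to 1340 against 611 to 818, and 1 was lower in mutant males, with sums of 578 to 944 against 586 to 710. Sums of 7 blood markers were 700 to 7210 in wild type males and 5520 to 12600 in wild type females, with 4200 to 11800 in mutant males. The part of muscle, blood and vaginal markers in the sex differences was not tested.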

How the data were processed

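Total RNA was depleted of ribosomal RNA and made into strand-specific single-end libraries, with RIN above 9.5, per the labels' protocols. The authors deposited 1 table of FPKM values for 56495 genes and 12 libraries. The submitters' processing notes list STAR 2.7.10a, Cufflinks 2.2.1, cutadapt 4.1 and bedtools 2.30.0, with mm39 and mm10 as builds. Gene positions in the table fit mm39, and its 36 mitochondrial genes are all at 0.

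The deposited FPKM were scaled by median ratios over 11897 genes at 1 FPKM or more in all 12 (divisors 0.748 to 1.131). Genes at 1 FPKM or more in at least 3 libraries were tested, 13904 in all, on log2(scaled FPKM + 0.5) with limma 3.58.1 in R 4.3.3, 4 group means, a mean-variance trend and Benjamini-Hochberg adjustment at 0.05. The 6 comparisons were mutant against wild type in males, in females and averaged, the difference of those effects, and males against females in each genotype. The procedure was checked on simulated data. No libraries held identical values. The members and lists were chosen with earlier results of these data known. Named beside the members are up to 3 called genes per list and comparison with the largest change, and the 3 genes with the highest correlation to each member. Some list genes that this rule picks are counted but not reported here. The alternatives changed the pseudocount, filter, scaling and fit, corrected for GC content and length, added a replicate block, or left out libraries. Promoters and their motifs come from RefSeq in GRCm38.p6.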

Additional observations from a re-analysis of the deposited data

How the results depend on the processing

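No member reversed direction with a call in any of the 22 alternatives. The number of members called was 1, 1, 2, 0, 3 and 4 for mutant against wild type males, females, both sexes averaged, the difference of those effects, and male against female in wild type and mutants. A pseudocount of 1 gave 2 in males, no filter gave 0 in females, 1 averaged and 3 for sex in mutants, and library sums gave 2 in males, 3 in females and 3 averaged. FPKM as deposited gave 1 in males and 2 averaged, but with Sult1e1 lower in place of Fkbp5 higher. A filter of 5 FPKM, which leaves fewer members in the test, gave 0 in females, 1 averaged, 1 for sex in wild type and 2 in mutants. Fitting the 2 compared groups alone gave 2 in males, 0 in females, 4 for sex in wild type and 3 in mutants. GC and length correction gave 0 in females and 1 averaged, which was Nr3c1, lower by -0.206 (adjusted p = 0.0414). Leaving out the 3 libraries with Rn7sk, chosen after seeing the data, gave 0 in males, 0 in females, 0 averaged, 2 for sex in wild type and 1 in mutants, with fewer samples. Leaving out single libraries gave 1 to 3 in males, 0 to 1 in females, 1 to 3 averaged, 0 to 0 for the difference, 3 to 4 for sex in wild type and 3 to 4 in mutants. Except for the smaller tests named, the cause was not tested.

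Replicate numbers are shared by the groups, and the labels state no pairing. Deviations of same-numbered libraries correlated between -0.226 and 0.317. Libraries of different number were not compared, so these values cannot show whether the numbers pair them. A replicate block left the members called at 1, 1, 2, 0, 3 and 4, and moved calls over all genes in wild type sex from 271 higher and 171 lower to 212 and 153. On FPKM as deposited, the split over all genes was 121 higher and 1229 lower in males and 231 and 1435 in females, against 1202 and 1618 and 1687 and 2208. With library sums it was 444 and 1992 in males, 320 and 4038 in females, and 1702 and 230 for sex in mutants, against 553 and 489. Leaving out the libraries with Rn7sk gave 6 and 56 in males. The difference of mutant effects called 1 gene with a pseudocount of 0.1 and 8 with no filter. Depth is not stated, and Sult1e1 and Zbtb16 in females lie where few reads set the value.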
